A study of Mus musculus with 14 samples.

Results

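The 10 genes described here encode the stem cell factor receptor Kit and its ligand Kitl, the IL-3 receptor chains Il3ra, Csf2rb and Csf2rb2, the kinase Jak2, the transcription factors Stat5a and Stat5b, and the STAT5 target genes Cish and Pim1. They were chosen by name, as the probes annotated with a member's symbol or an older alias, and make up 10 of 16014 genes tested. The arrays carried 17 probes for them, of which 16 passed the filter on dim probes, and every one of the 10 genes had a probe that passed.

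RNA was measured on 14 single-colour arrays of mouse bone marrow-derived mast cells (BMMCs), immature mast cells grown from marrow with IL-3 for 4 to 6 weeks. The design also held such cells after 96 h on a layer of Swiss 3T3 cells, a mouse fibroblast line, with 100 ng/ml stem cell factor. The groups were Pla2g3+/+ (wild-type) BMMCs on 3 arrays, Pla2g3–/– (knockout) BMMCs on 4, wild-type cocultured cells on 4 and knockout cocultured cells on 3. All carried the strain label C57BL/6.129Sv-N3. Pla2g3 encodes the group III secreted phospholipase A2. After coculture the cells were detached and plated again and the cells that did not adhere were taken, with more than 99% of them positive for Kit and FcεRIα by the labels, against more than 97% before. Whether IL-3 was present during coculture is not stated in the sources used here. Layer and factor were added together, so their effects cannot be told apart. Whether the replicates are separate animals or cultures is not given in the labels, so a p-value measures only the spread between these samples, which may be technical.

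Mast cells depend on 2 receptor systems for growth and survival. Stem cell factor binds Kit, a receptor tyrosine kinase that signals through phosphoinositide 3-kinase, the Ras to MAP kinase pathway and STAT proteins. IL-3 binds a ligand-specific alpha chain, Il3ra, paired with a beta chain that has no kinase of its own. Mice have the shared beta chain Csf2rb and a close copy used by IL-3 alone, Csf2rb2. Jak2 bound to the beta chain phosphorylates STAT5A and STAT5B, which enter the nucleus, bind a palindromic DNA element and switch on genes such as Cish, Pim1 and Socs1. Cish and Socs1 are feedback inhibitors of cytokine receptors and Pim1 is a survival kinase. Much of this control acts through phosphorylation, which these arrays do not measure.

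Levels below are log2 signals minus the 75th percentile of log2 signals on the same array, so 0 is that percentile. Changes are differences of these levels from a limma fit with Benjamini-Hochberg adjustment over all 16014 genes, and a change is called at an adjusted p under 0.05. Between 17690 and 23022 probes per array (43.0% to 55.9%) were well above background. Precision is limited by how few arrays each group has. All 12 mast cell markers were well above background on every array. Of 25 fibroblast markers, 5 to 8 were well above background on each BMMC array and 14 to 24 on each cocultured array. Their summed signal, in multiples of the array's 75th percentile, was 58.2 to 185 before coculture, 233 to 645 in wild-type and 244 to 335 in knockout cells after it. On BMMC arrays this sum came mostly from Vim, S100a4, Acta2 and Tagln, well above background on every BMMC array. Their means in wild-type BMMCs were 6.24, 4.44, 4.21 and 2.92, against -1.75 for the next marker, Pdgfrb. Tagln was at 2.35 in wild-type cocultured cells. The sum is therefore not a measure of fibroblast content alone. The Pla2g3 probe read -3.80 ± 0.87 (SD, n = 3) in wild-type and -1.57 ± 0.28 (SD, n = 4) in knockout BMMCs, and -3.48 ± 0.96 (SD, n = 4) and -2.32 ± 0.78 (SD, n = 3) after coculture. It was thus higher on the libraries labelled knockout, against the label's direction. Whether the probe lies in the deleted part is not given in the sources used here. Directions between genotypes below are directions between the libraries labelled knockout and wild-type.

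Wild-type cocultured 3 and knockout cocultured 3 each stood apart from their own group and varied alike with arrays bearing the opposite genotype label. They did not vary alike with each other, although both were on the slide scanned on another date than the other 3 slides. The reason was not tested. Across genes, the deviation of wild-type cocultured 3 from its group mean correlated at 0.515 and 0.358 with those of knockout cocultured 1 and 2, and at -0.544 with knockout cocultured 3. Knockout cocultured 3 correlated at 0.422, 0.250 and 0.158 with wild-type cocultured 1, 2 and 4. Where leaving out both of these arrays changed a call or a direction of a member, the value without them is also given. These arrays stood out in these same data, so values and adjusted p without them are descriptions, not tests.

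Coculture was followed by called changes in 4 of the 10 genes in each genotype, against 12.9% of all genes in wild-type and 14.3% in knockout cells. Kitl and Jak2 were higher and Stat5b lower in both genotypes. Csf2rb2 was the other called gene in wild-type cells and Pim1 in knockout cells. In the contrast averaged over genotypes, Kitl and Jak2 were higher and Stat5b and Pim1 lower, 4 of 10 against 28.2% of all genes. The 10 genes were chosen with earlier results of these data known, so setting these counts beside the shares is not a test. The median change of the 10 genes was -0.50 in wild-type, -0.10 in knockout and -0.31 averaged, beside -0.06, 0.07 and 0.02 over all genes tested. Kit, Il3ra, Csf2rb, Stat5a and Cish passed in none of these 3 contrasts.

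**Figure D1:**
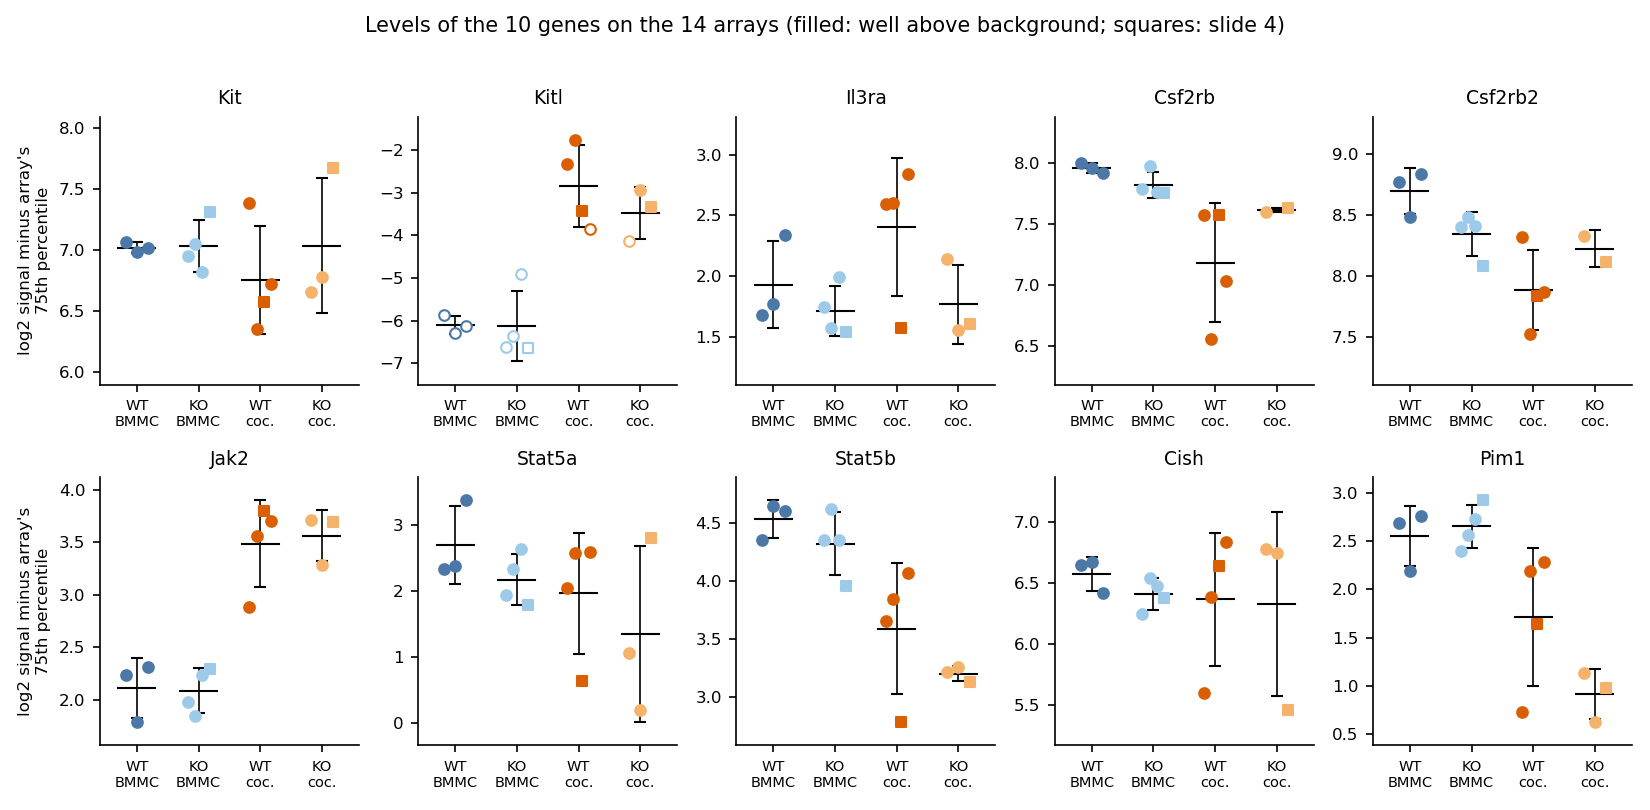
Level of each of the 10 genes on every array, as log2 signal minus the array's 75th percentile, by group (WT wild-type, KO knockout, coc. cocultured); filled points were well above background, squares are arrays of slide 4, lines are group means and bars SD. Jak2 separates the cocultured arrays (2.89 to 3.79) from the BMMC arrays (1.79 to 2.32), while the cocultured arrays of Kit, Cish and Stat5a overlap the BMMC arrays.

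**Figure D2:**
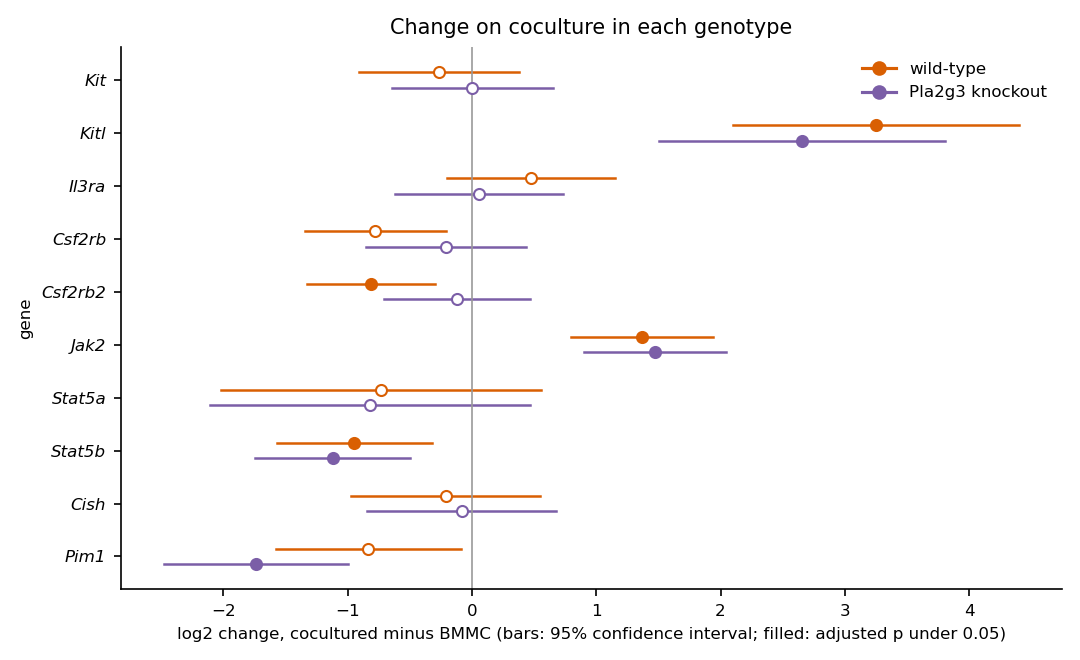
Change on coculture of each gene in wild-type (orange) and knockout (purple) cells, in log2 units on the horizontal axis; bars are 95% confidence intervals and filled points passed an adjusted p of 0.05. Kitl and Jak2 lie to the right of 0 and Stat5b to the left in both genotypes, and the intervals of Kit, Il3ra, Stat5a and Cish include 0.

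Kit, the stem cell factor receptor, was measured by a probe at chr5:76052287-76052346 (mm9). Its level was 7.07, 6.98 and 7.01 on the wild-type BMMC arrays and 6.95, 7.05, 6.82 and 7.32 on the knockout BMMC arrays. After coculture it was 7.38, 6.35, 6.57 and 6.72 in wild-type and 6.66, 6.78 and 7.68 in knockout cells. The 4 group means lay between 6.76 and 7.04 and none stood apart from its neighbours beyond the spread. The cocultured arrays were more widely spread than the BMMC arrays and overlapped them on both sides. The change was -0.26 (95% confidence interval -0.91 to 0.38, adjusted p = 0.650) in wild-type and 0.00 (-0.64 to 0.65, adjusted p = 0.996) in knockout cells. The averaged change of -0.13 had an interval of -0.59 to 0.33. Without both slide 4 cocultured arrays, 1 of which was the highest of all, the knockout change was -0.32 (adjusted p = 0.409).

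Kitl encodes stem cell factor itself, which fibroblasts make and mast cells bind. Its probe at chr10:99562481-99562540 (mm9) read -5.87, -6.30 and -6.12 in wild-type and -6.61, -6.37, -4.91 and -6.64 in knockout BMMCs, and was well above background on none of these 7 arrays. After coculture it read -2.32, -1.77, -3.43 and -3.85 in wild-type cells and -4.14, -2.94 and -3.34 in knockout cells. Of these arrays, 3 of 4 and 2 of 3 read well above background, and every cocultured array read above every BMMC array. Because the BMMC readings are only bounds, the rise was at least 2.25-fold in wild-type (adjusted p = 0.00183), at least 1.42-fold in knockout (adjusted p = 0.00662) and at least 1.79-fold averaged (adjusted p = 0.000116). Here "at least" sets the cocultured mean against the mean, per BMMC array, of the lowest signal well above background, or of the probe's own reading where that was higher. The adjusted p given with such bounds, here and below, belong to the limma change of the readings as they stood. For Kitl these changes were 3.25 in wild-type, 2.66 in knockout and 2.95 averaged. The bounds themselves were not tested. Under normexp background correction none of these calls held, with changes of 0.19 (adjusted p = 0.773), 0.75 (adjusted p = 0.15) and 0.47 (adjusted p = 0.148). That setting adds an offset of 50 to every signal. Kitl signals before it were 1.27 to 3.94 on BMMC arrays and 3.94 to 44.8 on cocultured arrays. The offset thus compresses any change of this probe, and the lost calls say little about the rise. Fibroblast markers moved with Kitl. Of 24 tested, 18 rose in wild-type, 11 in knockout and 20 in the averaged contrast, and 0 fell. Most of these markers, like Kitl, were well above background on no BMMC array. They passed the filter on dim probes through the cocultured arrays alone and could hardly have fallen, so these counts are descriptions, not a test. Col1a1, Col3a1 and Dcn, matrix genes of fibroblasts, were well above background on all 7 cocultured and on 0 BMMC arrays, while Thy1 was on no array. Their part in the Kitl reading was not tested. In such bulk RNA, fewer cells of a type and less RNA per cell cannot be told apart.

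A further Kitl probe, at chr10:99539380-99539439, was well above background on 0 of 14 arrays, with group means of -6.24 to -6.32. Its sequence is shown because it is the only probe of the 10 genes that failed the filter, and because the rise of Kitl rests on the other probe alone.
Kitl probe, chr10:99539380-99539439 (mm9, plus strand): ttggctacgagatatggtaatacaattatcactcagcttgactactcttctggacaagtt

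**Figure D3:**
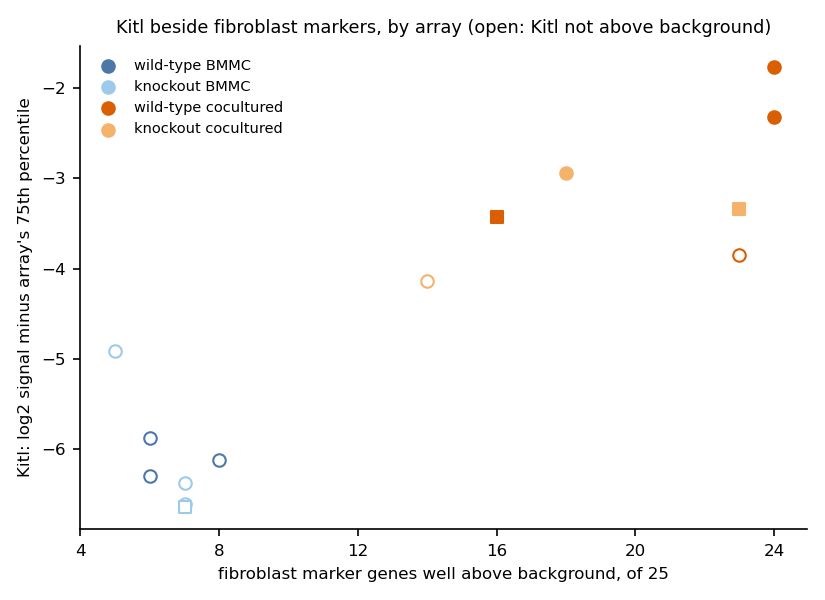
Level of Kitl on each array (vertical axis, log2 signal minus the array's 75th percentile) against the number of 25 fibroblast markers well above background on that array (horizontal axis); each point is an array, filled where Kitl was well above background and square on slide 4. The BMMC arrays lie at 5 to 8 markers with Kitl between -6.64 and -4.91, and the cocultured arrays at 14 to 24 markers with Kitl between -4.14 and -1.77.

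The IL-3 receptor chains gave 1 call among 3 genes in wild-type and 0 in knockout cells. The ligand-binding chain Il3ra, on a probe at chr14:15183673-15184484 (mm9), read 1.68, 1.77 and 2.34 in wild-type and 1.75, 1.57, 1.99 and 1.54 in knockout BMMCs. It read 2.60, 2.61, 1.57 and 2.84 in wild-type and 2.14, 1.56 and 1.61 in knockout cocultured cells. Wild-type cocultured 3 lay among the BMMC arrays and the other 3 wild-type cocultured arrays above all of them. The change was 0.47 (95% confidence interval -0.20 to 1.15, adjusted p = 0.380) in wild-type and 0.06 (-0.62 to 0.73, adjusted p = 0.934) in knockout cells. Without both slide 4 cocultured arrays the wild-type change was 0.75 (adjusted p = 0.0428).

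Csf2rb, the beta chain shared by the receptors of IL-3, IL-5 and GM-CSF, was read at chr15:78181168-78181227 (mm9). Its level was 8.0, 7.96 and 7.92 in wild-type and 7.79, 7.98, 7.76 and 7.75 in knockout BMMCs. After coculture it was 7.57, 6.55, 7.57 and 7.03 in wild-type cells, and 7.60 and 7.63 on knockout cocultured 1 and 3, its value on knockout cocultured 2 being left out by the scanner's outlier mark. All 6 cocultured values lay below all 7 BMMC values. The change was -0.78 (SE 0.26, adjusted p = 0.0723) in wild-type, -0.21 (SE 0.30, adjusted p = 0.699) in knockout cells and -0.49 (SE 0.20, adjusted p = 0.0822) averaged, none of them called. The wild-type change was -0.91 (adjusted p = 0.0244) without both slide 4 cocultured arrays. In the fit over all probes, another Csf2rb probe averaged -0.71 (adjusted p = 0.0492) and the remaining one -0.34 (adjusted p = 0.290).

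Csf2rb2, the beta chain copy used by IL-3 alone, was read at chr15:78113126-78113185 (mm9). It read 8.77, 8.49 and 8.84 in wild-type and 8.40, 8.48, 8.41 and 8.08 in knockout BMMCs, and 8.32, 7.53, 7.83 and 7.87 in wild-type cocultured cells. Knockout cocultured 2 and 3 read 8.33 and 8.12, with knockout cocultured 1 left out by the outlier mark. In wild-type cells the groups did not overlap and Csf2rb2 fell by 0.81 (SE 0.24, adjusted p = 0.0420), whereas the change in knockout cells was -0.12 (SE 0.27, adjusted p = 0.818). The wild-type call was lost under 17 of 25 other settings, with adjusted p up to 0.432. The difference between the genotypes' changes was 0.69 and did not pass.

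The Csf2rb and Csf2rb2 probes target near-identical transcripts, so signal of each may hold some of the other. Their best matching stretches are shown because they bear on whether the pair can be read as separate genes. Capitals mark the bases that differ.
Csf2rb, chr15:78181197-78181226 (mm9, plus strand): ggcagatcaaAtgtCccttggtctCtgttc
Csf2rb2, chr15:78113145-78113174 (mm9, minus strand): ggcagatcaaGtgtTccttggtctAtgttc
Of these 30 bases 27 were the same, and the substitutions, Csf2rb base first and counted from 1 at the 5′ end, were A11G, C15T and C25A. Over the 12 arrays with both values, which share library and depth, the levels correlated at 0.85 (Pearson).

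Jak2, the kinase bound to the IL-3 receptor beta chain, rose in both genotypes. Its probe at chr19:29386361-29386420 (mm9) read 2.24, 1.79 and 2.32 in wild-type and 1.98, 1.85, 2.24 and 2.30 in knockout BMMCs. After coculture it read 2.89, 3.56, 3.79 and 3.70 in wild-type and 3.71, 3.28 and 3.69 in knockout cells. All 7 cocultured arrays lay above all 7 BMMC arrays, and within either stage the genotypes overlapped. The rise was 1.37 in wild-type (SE 0.26, 2.59-fold, adjusted p = 0.00480) and 1.47 in knockout cells (SE 0.26, 2.77-fold, adjusted p = 0.00357). Averaged over genotypes it was 1.42 (SE 0.19, 2.68-fold, adjusted p = 0.000149). Within single slides the rise was 1.09 and 1.32 in wild-type and 1.73, 1.43 and 1.40 in knockout cells. The other Jak2 probe, at chr19:29363211-29363270, rose by 1.23 averaged in the fit over all probes (adjusted p = 0.00639). Under normexp background correction and with the authors' normalized values, which were not scaled between arrays, Jak2 no longer passed in knockout cells. In wild-type cells it passed under all 26 other settings.

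Stat5a and Stat5b are neighbouring genes whose proteins are activated by Jak2. Stat5a, at chr11:100746144-100746203 (mm9), read 2.35, 2.38 and 3.38 in wild-type and 1.95, 2.34, 2.64 and 1.79 in knockout BMMCs. It read 2.05, 2.59, 0.64 and 2.60 in wild-type and 1.06, 0.20 and 2.82 in knockout cocultured cells. Wild-type cocultured 3 and knockout cocultured 1 and 2 were low and the other 4 cocultured arrays lay among the BMMC arrays. The change was -0.73 (95% confidence interval -2.02 to 0.56, adjusted p = 0.498) in wild-type and -0.82 (-2.11 to 0.47, adjusted p = 0.394) in knockout cells. Without both slide 4 cocultured arrays the knockout change was -1.55 (adjusted p = 0.0117) and the averaged change -0.92 (adjusted p = 0.0187), while the wild-type change was -0.29 (adjusted p = 0.622).

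Stat5b, at chr11:100642099-100642158 (mm9), read 4.35, 4.65 and 4.61 in wild-type and 4.35, 4.62, 4.36 and 3.96 in knockout BMMCs. After coculture it read 3.65, 3.85, 2.79 and 4.07 in wild-type and 3.21, 3.26 and 3.13 in knockout cells. Neither genotype's groups overlapped, although wild-type cocultured 4 lay above knockout BMMC 4. Stat5b fell by 0.95 in wild-type (SE 0.29, adjusted p = 0.0486), by 1.12 in knockout cells (SE 0.29, adjusted p = 0.0232) and by 1.03 averaged (SE 0.20, adjusted p = 0.00244). The change was negative within each of 5 slide comparisons, from -0.65 to -1.36. Another Stat5b probe, at chr11:100648654-100649702, averaged -1.13 (adjusted p = 0.00498) in the fit over all probes. The remaining probe averaged -1.08 (adjusted p = 0.339) but differed in direction, at 0.31 (adjusted p = 0.908) in wild-type and -2.47 (adjusted p = 0.162) in knockout cells. It was not well above background on wild-type cocultured 3 and knockout cocultured 1 and 2, the arrays that were low for Stat5a. The wild-type call was lost under 19 of 26 other settings and the knockout call under 9 of 26. With the median of the kept probes in place of 1 probe, the change was 0.16 (adjusted p = 0.875) in wild-type cells, -0.60 (adjusted p = 0.410) in knockout cells and -0.22 (adjusted p = 0.654) averaged. The probe at the median differed between arrays. On the wild-type BMMC arrays it was that at chr11:100648654-100649702, and on wild-type cocultured 1, 2 and 4 the remaining probe. These medians thus set different probes against each other and are not the change of any 1 probe.

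Cish encodes a feedback inhibitor that STAT5 switches on within the same receptor system. Its probe at chr9:107204196-107204255 (mm9) read 6.65, 6.67 and 6.42 in wild-type and 6.25, 6.54, 6.48 and 6.38 in knockout BMMCs. After coculture it read 5.60, 6.39, 6.64 and 6.84 in wild-type and 6.78, 6.75 and 5.46 in knockout cells. Wild-type cocultured 1 and knockout cocultured 3 were low, and the same arrays were the highest of all 14 for Kit, while the other 5 cocultured arrays lay within or above the BMMC range. The change was -0.21 (95% confidence interval -0.97 to 0.55, adjusted p = 0.776) in wild-type, -0.08 (-0.84 to 0.68, adjusted p = 0.907) in knockout cells and -0.15 (-0.68 to 0.39, adjusted p = 0.707) averaged. Without both slide 4 cocultured arrays the knockout change turned to 0.35 (adjusted p = 0.398) and the averaged change to 0.02 (adjusted p = 0.941). Without wild-type cocultured 1 the wild-type change was 0.05 (adjusted p = 0.957).

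Pim1 encodes a serine/threonine kinase that promotes survival and is induced by STAT5. Its probe at chr17:29630740-29630799 (mm9) read 2.69, 2.19 and 2.76 in wild-type and 2.40, 2.57, 2.73 and 2.92 in knockout BMMCs. After coculture it read 0.74, 2.19, 1.64 and 2.29 in wild-type cells and 1.14, 0.63 and 0.98 in knockout cells. The knockout groups did not overlap, while wild-type cocultured 4 lay above the lowest wild-type BMMC array. Pim1 fell by 1.74 in knockout cells (SE 0.34, adjusted p = 0.00616) and by 1.29 averaged (SE 0.24, adjusted p = 0.00182). In wild-type cells the change was -0.84 (95% confidence interval -1.58 to -0.09, adjusted p = 0.139). The difference between these changes was -0.90 (SE 0.49, adjusted p = 0.994), so they are not shown to differ. Within slides the knockout change was -1.26, -1.94 and -1.94. With the median of the kept probes it was -1.69 (adjusted p = 0.0592).

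That median includes a probe annotated to Pim1 but reading the opposite strand of the same gene. Both sequences are shown because the first carries the Pim1 result and the second reads the antisense strand. On that strand changes of -0.78 (adjusted p = 0.678) in wild-type and -1.64 (adjusted p = 0.273) in knockout cells did not pass in the fit over all probes. The antisense probe read 1.92 on knockout BMMC 3, against -2.12, -1.85 and -2.96 on knockout BMMC 1, 2 and 4. That 1 array enlarges its fall in knockout cells and that of the median. On knockout cocultured 3 it was not well above background.
Pim1 probe, chr17:29630740-29630799 (mm9, plus strand): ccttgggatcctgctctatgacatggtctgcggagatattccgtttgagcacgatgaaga
Opposite-strand probe, chr17:29628627-29628686 (mm9, minus strand): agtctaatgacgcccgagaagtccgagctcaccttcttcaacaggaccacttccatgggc

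Several other STAT5 and cytokine-induced genes moved further than Cish and Pim1. Counts in this and the next lists stand against the 12.9%, 14.3% and 28.2% of all genes called in wild-type, in knockout cells and averaged. The lists were chosen with earlier results of these data known, so setting their counts beside these shares is not a test. Of 22 genes in this list 19 were tested. The list was set by name. Whether STAT5 or a cytokine raises or lowers each gene in these cells was not tested, so its counts of higher and lower give no direction of STAT5 activity. In wild-type cells 3 were higher, 8 lower and 8 not called, with a median change of -0.37. In knockout cells 4 were higher, 8 lower and 7 not called, with a median of -0.85, and in the averaged contrast 4, 8 and 7, with -0.54. The 4 genes of lowest p, named for that reason, all fell without overlap between stages. They were called in both genotypes under each of the 26 other settings.

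Socs1, an inhibitor of JAK kinases, read 6.57, 7.11 and 6.95 in wild-type and 6.51, 6.84, 7.0 and 5.93 in knockout BMMCs. It read 1.56, 2.36, 1.31 and 1.83 in wild-type and 1.26, 1.87 and 0.74 in knockout cocultured cells, and so fell by 5.11 (SE 0.35, adjusted p = 3.03e-06) and fell by 5.28 (adjusted p = 2.25e-06). Every cocultured array lay far below every BMMC array. The kinase Pim2, a relative of Pim1, fell from 3.25 ± 0.49 (SD, n = 3) to -1.78 ± 0.34 (SD, n = 4) in wild-type and from 3.25 ± 0.19 (SD, n = 4) to -1.70 ± 0.10 (SD, n = 3) in knockout cells. These changes were -5.03 (SE 0.27, adjusted p = 6.86e-07) and -4.95 (adjusted p = 5.61e-07), and both other Pim2 probes fell as well. The serine protease inhibitor Serpina3g fell by 4.08 (SE 0.38, adjusted p = 3.42e-05) in wild-type and fell by 4.28 in knockout cells (adjusted p = 2.89e-05), from 7.28 ± 0.09 (SD, n = 3) and 6.96 ± 0.12 (SD, n = 4). Tnfrsf13b, a receptor of the tumour necrosis factor receptor family, fell by 2.94 (SE 0.28, adjusted p = 3.81e-05) and 3.55 (adjusted p = 1.11e-05).

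**Figure D4:**
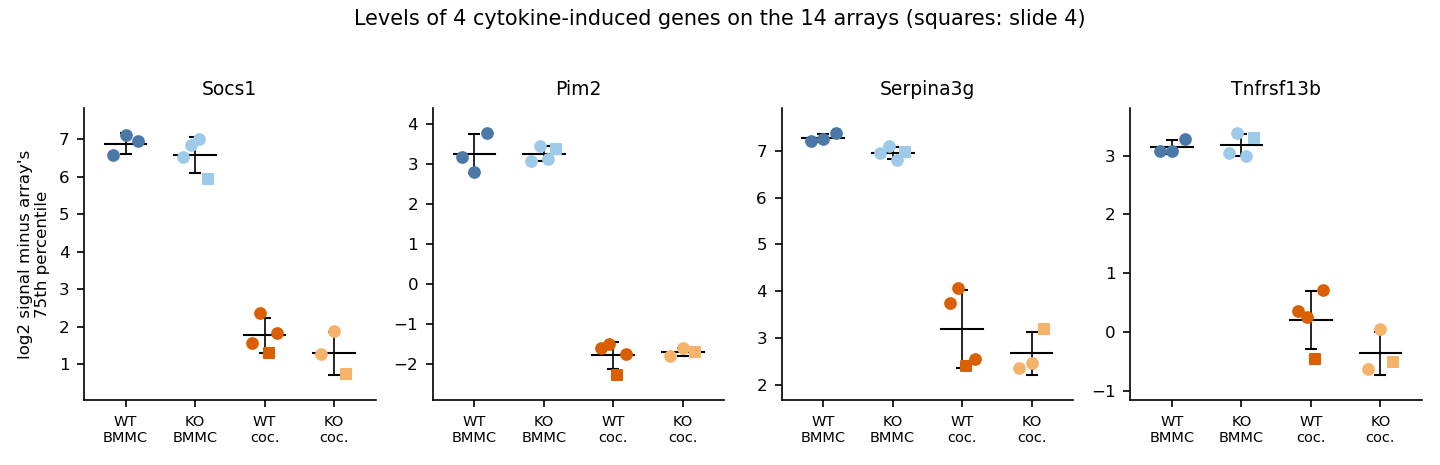
Level on each array of Socs1, Pim2, Serpina3g and Tnfrsf13b, as log2 signal minus the array's 75th percentile, by group (WT wild-type, KO knockout, coc. cocultured); squares are arrays of slide 4, lines are means and bars SD. In each panel all 7 cocultured arrays lie below all 7 BMMC arrays, with Socs1 at 0.74 to 2.36 against 5.93 to 7.11.

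The rest of that list is named beyond the rule, after its values were seen. The survival gene Bcl2 fell by 3.20 and 2.39 (wild-type, knockout), the cytokine Osm by 2.73 and 2.80, and the stress gene Gadd45g by 2.39 and 1.39. The IL-2 receptor alpha chain Il2ra fell by 1.87 in wild-type and was at least 4.27-fold lower in knockout cells, where no cocultured array read well above background. The inhibitor of differentiation Id1 rose by 2.04 and 2.29, and the repressor Bcl6 by 1.95 and 1.83. Ccnd1, the D-type cyclin that fibroblasts also express, rose by 3.62 in wild-type and was at least 11.1-fold higher in knockout cells, beside the fibroblast markers given above, whose part was not tested. The survival gene Mcl1 was at 0.60, not called, in wild-type and rose by 1.24 in knockout cells. Changes that did not pass included Socs2 (-0.37 and -0.10), Socs3 (-0.02 and -0.85), Bcl2l1 (-0.33 and -0.12), Myc (-0.22 and -0.86) and Ccnd2 (-0.17 and 0.43). Thus the inhibitors Cish, Socs2 and Socs3 were not called while Socs1 fell, and Pim3 (-0.30 and 0.32) was not called while Pim2 fell.

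**Figure D5:**
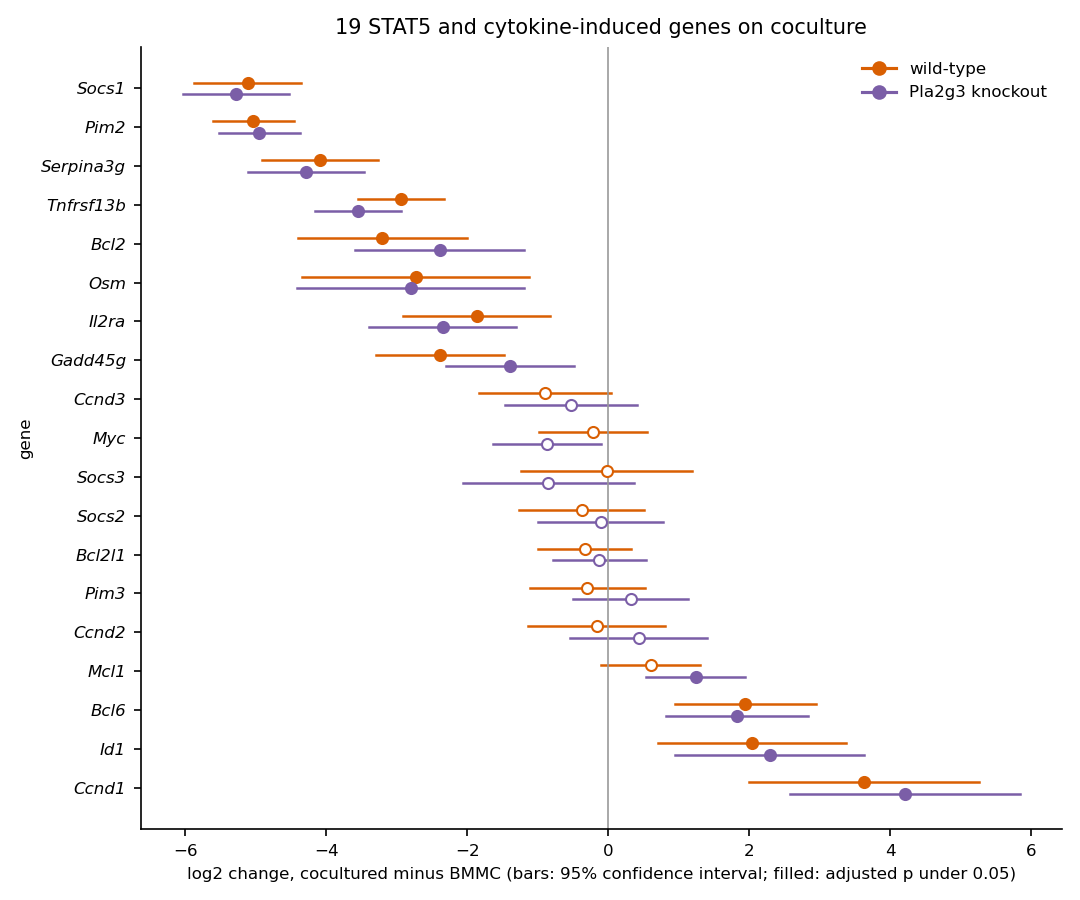
Change on coculture of the 19 tested STAT5 and cytokine-induced genes in wild-type and knockout cells, in log2 units on the horizontal axis; bars are 95% confidence intervals and filled points passed an adjusted p of 0.05. Socs1 lies lowest, at -5.11 and -5.28, and Ccnd1 highest, at 3.62 in wild-type cells; its point in knockout cells and that of Il2ra rest on readings not well above background and are not exact.

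Promoters were searched for the STAT5-type element TTCNNNGAA, a palindrome that reads the same on both strands. The windows ran from 250 bases before to 50 after the RefSeq gene start (GRCm38.p6), and 2726 of 32851 promoters (8.30%) held it. Of the 10 genes 9 had an entry, and 2 of these, Cish and Csf2rb2, held it. No match lay in the windows of Kit, Kitl, Il3ra, Jak2, Stat5a, Stat5b or Pim1, nor of Socs1, Pim2 or Tnfrsf13b. Cish held it 2 times, at bases 1 and 12 from the gene start, Csf2rb2 at base -15 and Serpina3g at base -33. The matches, in capitals, are shown to set the genes of this pathway that hold the element beside how they moved, from Cish, not called, to Serpina3g, which fell.
Cish, chr9:107296654-107296683 (GRCm38.p6, plus strand): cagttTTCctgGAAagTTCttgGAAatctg
Csf2rb2, chr15:78305717-78305746 (GRCm38.p6, minus strand): gtgtccacaaTTCtgaGAAgcaagcaaagc
Serpina3g, chr12:104236104-104236133 (GRCm38.p6, plus strand): taagttatagTTCccaGAAatcacccggtc

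Among 8 other JAK and STAT genes, none was called in wild-type cells. Stat2, which carries interferon signals, fell by 1.16 (adjusted p = 0.0256) in knockout cells and was the 1 gene of 8 called there. That call was lost under 8 of 26 other settings. In wild-type cells it was at -0.93 (adjusted p = 0.0639). The medians were -0.42 and -0.54. Averaged changes of Jak1 (0.29), Jak3 (-0.73) and Tyk2 (-0.42) were not called, so Jak2 was the 1 called kinase of these 4.

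Of 19 ligands and other receptors of the common beta and gamma chain families, 14 were tested. In wild-type cells 2 were higher and 0 lower (median 0.48), in knockout cells 2 and 0 (median 0.56), and averaged 3 and 2 (median 0.38). Tslp, an epithelial and stromal cytokine, was well above background on no BMMC array and on 6 of 7 cocultured arrays. It was at least 4.36-fold higher in wild-type (adjusted p = 0.00769) and at least 2.78-fold in knockout cells (adjusted p = 0.0187). Csf2, which encodes GM-CSF, was at least 3.63-fold higher in wild-type cells (adjusted p = 0.0181) and did not pass in knockout cells (adjusted p = 0.109). Fibroblast markers, given above, were higher on the cocultured arrays too, and their part in these readings was not tested. Il2rg, the common gamma chain, rose by 1.01 in knockout cells (adjusted p = 0.0469), and Csf2ra, the GM-CSF receptor alpha chain, fell by 0.75 in the averaged contrast (adjusted p = 0.0302). Of these calls, that of Il2rg was lost under 20 of 26 other settings, that of Csf2ra under 9 of 25 and that of Csf2 under 5 of 24.

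All 24 negative regulators were tested. In wild-type cells 2 were higher and 2 lower (median -0.09), in knockout cells 1 and 4 (median -0.20), and averaged 4 and 6 (median -0.08). Sh2b3, also called Lnk, an inhibitor of Kit and Jak2 signalling, rose by 1.45 (adjusted p = 0.00844) and 1.1 (adjusted p = 0.0335) in wild-type and knockout cells. Ptpn2, a phosphatase of JAK and STAT proteins, fell by 2.02 (adjusted p = 0.00134) and 1.52 (adjusted p = 0.00826). Sh2b1, an adaptor that binds Jak2 and raises its activity although it stands in this list, fell by 1.51 (adjusted p = 0.00190) and 1.54. Pias3, an inhibitor of STAT binding, fell by 0.98 in knockout cells (adjusted p = 0.0256). In knockout cells the call of Sh2b3 was lost under 12 and that of Pias3 under 11 of 26 other settings.

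Below Kit, 32 of 34 adaptors and kinases were tested. In wild-type cells 4 were higher and 2 lower (median -0.03), in knockout cells 6 and 1 (median 0.21), and averaged 7 and 5 (median 0.08). Pik3cd, the catalytic phosphoinositide 3-kinase subunit of blood cells, fell by 2.26 (adjusted p = 0.000248) and 2.35 (adjusted p = 0.000263). The Ras pathway inhibitors Spred1 and Spry2 rose by 1.23 and 1.75 in wild-type and by 1.15 and 1.87 in knockout cells. Another Spry2 probe moved less, from a mean of -1.67 to -1.19 in wild-type and from -1.80 to -1.08 in knockout cells. Its SD by group was 0.25 to 0.98. The Src family kinase Fyn rose by 1.89 (adjusted p = 0.0143) and 2.08 (adjusted p = 0.00928). In wild-type cells the call of Spry2 was lost under 8 and that of Fyn under 4 of 26 other settings, and in knockout cells those of Spry2, Spred1 and Fyn under 4, 2 and 1.

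Of 10 genes that regulate Kit transcription, 2 fell in wild-type (median -0.47), 3 in knockout cells (median -0.52) and 3 averaged (median -0.39), and 0 rose. Gata1 fell from 3.12 ± 0.07 (SD, n = 3) to 1.13 ± 0.22 (SD, n = 4) in wild-type and from 3.24 ± 0.21 (SD, n = 4) to 1.21 ± 0.40 (SD, n = 3) in knockout cells (-1.99, adjusted p = 0.000191, and -2.04, adjusted p = 0.000228). Lyl1 fell by 1.90 (adjusted p = 0.0483) and 2.49 (adjusted p = 0.0146), the first lost under 17 of 26 other settings. Tal1 was at -0.75 (adjusted p = 0.0981) in wild-type and fell by 0.99 in knockout cells (adjusted p = 0.0330), a call lost under 8 of 26. Erythroid and megakaryocyte markers moved with these genes. Of 5 tested, 1 fell in each genotype, 4 fell averaged and 0 rose, and their summed signal, in multiples of the array's 75th percentile, was 49.1 to 63.5 on BMMC and 23.7 to 44.5 on cocultured arrays. Their part in the falls was not tested. Kit itself was not called beside these falls.

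Between genotypes, none of the 10 genes was called in BMMCs, after coculture or in the interaction, and limma called 0 of 16014 genes in each (0%). At an unadjusted p under 0.05, 170, 608 and 131 of all genes passed. In BMMCs the members' differences, knockout minus wild-type, ran from -0.52 for Stat5a to 0.10 for Pim1, with Kit at 0.01, with a median of -0.15 beside -0.09 for all genes. After coculture they ran from -0.80 for Pim1 (adjusted p = 0.796) to 0.43 for Csf2rb, with Il3ra at -0.64, Kitl at -0.63, Stat5a at -0.61, Stat5b at -0.39, Cish at -0.04, Jak2 at 0.08, Kit at 0.28 and Csf2rb2 at 0.34. Their median was -0.21 beside 0.05 for all genes. The interaction was largest for Pim1 (-0.90, unadjusted p = 0.0869). Without both slide 4 cocultured arrays, Il3ra (-0.83, adjusted p = 0.0428) and Stat5a (-1.79, adjusted p = 0.0107) were called lower in knockout cocultured cells, where 4049 of all 16014 genes were called in either direction. That leaves 3 wild-type and 2 knockout cocultured arrays, and the averaged contrast then called 5 of the 10 genes. The arrays left out were seen in these same data to deviate with the other genotype. Leaving them out thus sets the genotypes further apart, and these adjusted p-values are descriptions, not a test.

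Genes whose levels followed the members most closely over the arrays were ranked by Pearson r among 11091 genes well above background on every array. All points share library and depth, and these are descriptions. Jak2 was followed by Tollip (0.98), Tax1bp1 (0.96) and Fxyd6 (0.96) over 14 arrays. Stat5b was followed by Rapsn, Nfic and Ulk3 (each 0.98), Stat5a by Ppp1r37 (0.96) and Pim1 by Rab44 (0.97), Ptger4 (0.95) and Nbeal2 (0.94). Kit was nearest to Xpo6 (0.93), and Cish to Tmem35b (0.94), Elk3 (0.94) and Cdk5 (0.93). Csf2rb2, over 13 arrays, was nearest to Exosc5 (0.93). Among the members themselves, Stat5b correlated at 0.77 with Pim1 and at 0.66 with Stat5a over 14 arrays.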

How the data were processed

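RNA of 14 samples was amplified from 450 ng, labelled with Cy3 and hybridised to Agilent mouse arrays, per the labels. Scanner files hold spot intensity values deposited as made by Agilent Feature Extraction 9.5.1.1 (per the submitters' processing notes and the file headers), whose processed signal is background-subtracted. The authors' annotated table holds normalized intensity values for 25193 probes. Of these 25126 matched the arrays, each array's values being the raw signal less a constant to within 1 unit. They served as an alternative and were not scaled further between arrays. Its 14 per-array call columns were not used.

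From the scanner files, control spots and outlier flags were left out, log2 of the processed signal was taken, each array's 75th percentile over spots was subtracted and spots of a probe were averaged. Of 41174 probes, 24844 were named through an accession and 7855 through a symbol or synonym in RefSeq, and 8475 kept the file's name. Probes well above background (in most of their spots) on at least 3 arrays numbered 23623. After 32 with under 2 values in a group were dropped, 23591 were left, and each of 16014 genes was represented by its brightest probe (highest mean). No member probe was saturated. The 4 groups were fitted together with limma 3.58.1 in R 4.3.3 (lmFit, 6 contrasts, eBayes, two-sided, Benjamini-Hochberg, adjusted p under 0.05), after tests on simulated data. Probe positions are those of the file headers' annotation on mm9. Exons and untranslated regions were not assigned, as no mm9 annotation was used here.

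The members and the pathway lists were chosen with earlier results of these data known. Named genes were all members with every probe, up to 4 called genes of lowest p per pathway list (STAT5 and cytokine-induced genes, JAK and STAT family, ligands and other receptors, negative regulators, adaptors and kinases below Kit, regulators of Kit transcription), the 3 genes most correlated with each member, and Pla2g3. Some items are not reported here. Markers of mast cells and fibroblasts were read on each array.

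Replicate numbers were checked as pairs through the correlation, across genes, of deviations from group means. Between the BMMC genotypes it was 0.197, 0.496 and 0.491, with same-numbered arrays also on the same slide, so these were taken as pairs. The correlation does not single out the first pair, as wild-type BMMC 1 correlated more highly, at 0.359, with knockout BMMC 4. The blocked fits called 0 members between the BMMC genotypes, as did the fit without the block. Same-numbered arrays of the other comparisons did not pair. Alternatives were normexp background correction (offset 50), other scalings, the authors' values, other filters, the median of a gene's probes, slide and replicate blocks, fewer groups and each array left out. The replicate block in a fit of the BMMC groups alone was added after seeing the data.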

Additional observations from a re-analysis of the deposited data

Results flagged for a closer look

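In 20 sets of 4 arrays (each of the 10 genes in the groups with 4), the highest or lowest array was tested against the others by Dixon's ratio, which chance passes in about 1 of 20 sets. It was passed by 2. Kitl read -4.91 on knockout BMMC 3, above the other 3 knockout BMMC arrays, and was not well above background there. The further Kitl probe was also higher on that array, at -5.02. Csf2rb read 7.98 on knockout BMMC 2, above the other 3 at 7.75 to 7.79 and within the range of the wild-type BMMC arrays (7.92 to 8.0).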

How the results depend on the processing

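Across the settings tried, the number of members called in wild-type coculture went from 4 to 1 with normexp background correction, 1 with the authors' values (9 members tested), and 2 each with quantile normalization, no filter on dim probes (9 tested), the replicate block and a fit of only the groups compared. In knockout cells it went from 4 to 2 with normexp, the authors' values and the median of a gene's probes. Without both slide 4 cocultured arrays, 2 members were called between genotypes after coculture, where 0 were otherwise. As those arrays stood out in these same data, this is a description, not a test. Leaving out each array in turn gave 2 to 4 calls in wild-type, 3 to 4 in knockout, 4 to 5 averaged and 0 to 0 in each genotype contrast and the interaction. The replicate block gave 3 in knockout and 4 averaged and 0 in the rest. Outside the BMMC genotypes, 3 same-numbered pairs also share a slide, and the deviations of same-numbered arrays did not all correlate. Among called members, the 1 change of sign was that of Stat5b in wild-type cells, at 0.16 with the median of its probes, where it was not called. That median came from different probes on different arrays. Kitl could not be fitted with the authors' values, which are below 1 on every array.

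Over all genes, calls in wild-type coculture numbered 877 with normexp, 916 with the authors' values and 3786 without both slide 4 cocultured arrays, against 2064. In knockout coculture they numbered 893 with normexp, 1392 with median scaling, 816 with the authors' values, 1347 with no filter, 1231 with the replicate block and 4950 without that pair, against 2285. Leaving out 1 array gave 1200, 1167 and 1119 in wild-type coculture without wild-type BMMC 1, 2 and 3. In knockout coculture it gave 1329 without knockout BMMC 1 and also without 2, 1523 without knockout BMMC 3 and 1069 without knockout cocultured 1. Averaged, they numbered 2352 and 2024 with normexp and the authors' values, against 4521. Between genotypes, 2 genes were called in BMMCs without knockout BMMC 3, and without the slide 4 pair 4049 were after coculture and 2036 in the interaction. Other settings gave 0 or 1 in these contrasts. In knockout coculture 54.5% of calls were higher, 31.4% with normexp and 32.1% with the authors' values, and in wild-type 46.7% and 66.6% with the authors' values. The median change of all genes in wild-type cells was -0.20 with median scaling and 0.37 with the authors' values. The authors' values have a constant subtracted but were not scaled between arrays. The 75th percentile signal was 83.3 to 100 on wild-type BMMC and 109 to 153 on wild-type cocultured arrays. It was 118 to 176 on knockout BMMC and 69.4 to 148 on knockout cocultured arrays. For most of these the cause was not tested. Signal over background limits Kitl, Tslp and Csf2, whose BMMC levels are bounds and whose changes the normexp offset of 50 compresses.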
